A study of Homo sapiens with 42 samples.

Results

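The genes HNF4A, HNF4G, CDX2, GATA4, PDX1, FOXA3 and ONECUT2 encode transcription factors that set gut, liver and pancreas identity, and their chromatin was read here in lung adenocarcinoma cells. A region was taken as a member where the authors' annotation gave it 1 of these 7 gene symbols. This held for 41 of 242490 annotated regions over 4 cell lines, of which PC9 had 8 of 69565, H1975 12 of 76952, HCC827 11 of 30709 and HCC2935 10 of 65264. Brought together by position they made 21 places in the genome, each 502 bases wide in every line that had it.

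Accessibility was measured by ATAC-seq, per the titles, in which a transposase inserts adapters into open chromatin. The 4 established lines carry an activated EGFR gene, were grown as monolayers, and gave 42 libraries in 14 groups of 3, labelled as biological triplicates. Control cells had 21 days without drug and then 3 days of DMSO, and drug tolerant persister (DTP) cells had 24 days of 500 nM osimertinib, which inhibits EGFR. Cells of the sequential combination (combo) had 21 days of 500 nM osimertinib and then 3 days of 150 nM AZD5153, a small-molecule inhibitor. AZD5153 alone, at 150 nM for 3 days after 21 days without drug, was given to PC9 and H1975. Whether the combo cells still had osimertinib while on AZD5153 is not given in the labels.

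HNF4A and HNF4G are nuclear receptors that maintain the programmes of hepatocytes and enterocytes, with HNF4A transcribed from an adult liver promoter, P1, or from an upstream promoter, P2. CDX2 is a homeobox factor of the intestinal epithelium, PDX1 of pancreas and duodenum, and GATA4 a zinc finger factor of foregut, liver and heart. FOXA3 is a forkhead factor that binds closed chromatin, and ONECUT2 a cut homeobox factor of the liver and its ducts. Gut and liver programmes are known from lung adenocarcinomas that have lost NKX2-1, the lineage factor of lung epithelium.

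The promoter windows below are shown because the accessible regions of FOXA3 and ONECUT2 lie on them, whereas that of HNF4A lies past its window. Each gives the 250 bases before the annotated start, 5′ to 3′ on the plus strand, from RefSeq (GRCh38.p14). The windows are chr20:44400989-44401238 for HNF4A P1, chr19:45864076-45864325 for FOXA3 and chr18:57435124-57435373 for ONECUT2. Capitals mark matches, on either strand, to GTTAAT for an HNF1 site, to GATAA for the zinc finger factors of the GATA4 family, to ATCAAT for ONECUT factors, to TGTTTAC for forkhead factors, to CAAAGTC for HNF4 receptors, to TATAAA for a promoter box and to GGGCGG for a GC box.
HNF4A P1: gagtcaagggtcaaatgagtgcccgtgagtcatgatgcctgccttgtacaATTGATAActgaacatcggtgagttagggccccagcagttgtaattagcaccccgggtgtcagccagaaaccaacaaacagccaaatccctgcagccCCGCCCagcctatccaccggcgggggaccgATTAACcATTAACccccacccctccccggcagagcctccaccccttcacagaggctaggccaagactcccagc
FOXA3: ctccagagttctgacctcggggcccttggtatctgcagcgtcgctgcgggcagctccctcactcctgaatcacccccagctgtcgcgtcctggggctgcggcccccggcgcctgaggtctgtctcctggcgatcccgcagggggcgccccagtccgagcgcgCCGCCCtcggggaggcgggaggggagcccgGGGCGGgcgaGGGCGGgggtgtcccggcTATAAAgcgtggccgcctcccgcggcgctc
ONECUT2: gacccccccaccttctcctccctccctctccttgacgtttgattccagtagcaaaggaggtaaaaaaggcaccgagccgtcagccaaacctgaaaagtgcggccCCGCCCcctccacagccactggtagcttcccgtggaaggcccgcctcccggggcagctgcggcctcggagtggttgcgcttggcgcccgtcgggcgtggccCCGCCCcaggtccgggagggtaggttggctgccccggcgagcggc

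The P1 window held 2 matches to the HNF1 letters, 73 and 66 bases before the start, and a GATA and an ONECUT match that share bases at about 200 bases before it. Of 35116 RefSeq windows of this length, 6.23% held the HNF1 letters, 20.4% the GATA, 5.58% the ONECUT and 2.91% the HNF4 letters. FOXA3 had a TATA match 30 bases before the start, found in 10.7% of windows, and 3 GC boxes, found in 42.6%. ONECUT2 had 2 GC boxes and none of the other letters, and 2.98% of windows held the FOXA letters, which none of the 3 windows shown had. The GC content was 58.0% at P1, 75.2% at FOXA3 and 68.8% at ONECUT2.

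PC9 libraries held 3989287 to 5193390 counts, H1975 libraries 6200672 to 10062505, HCC827 libraries 1724680 to 4242868 and HCC2935 libraries 3968690 to 8066287. Libraries of a group differed by 0.95 to 1.03 times counting noise in PC9 and 0.962 to 1.21 times in H1975, against 1.19 to 9.39 in HCC827 and 1.17 to 1.80 in HCC2935. Because the PC9 and H1975 triplicates were this alike, calls with the 3 libraries of a group summed to 1 are given beside theirs and those of HCC2935. A summed group has no spread of its own, so the spread of HCC2935 regions of like level was used in all 3 lines. The summed calls therefore do not rest on a spread measured in PC9 or H1975. NKX2-1 had a promoter region in all 4 lines, with control means of 9.15 to 33.6 CPM (counts scaled to a common library size). The epithelial genes EPCAM and CDH1 also had one in all 4, while PTPRC of leukocytes had none in any line. Of the 7 leukocyte and endothelial genes listed, HCC827 had a promoter region for 1, HCC2935 for 2, H1975 for 4 and PC9 for 5. CD3E had control means of 9.85 CPM in PC9 and 12.1 in HCC2935, and CD14 3.21 in PC9 and 16.5 in H1975. PTPRC thus does not stand for that list. In bulk cultures a change in the mix of cells and a change in each cell cannot be told apart. The peak files of PC9 and H1975 carry another project code than those of HCC827 and HCC2935, so that code and copy number cannot be told apart from the line.

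The lines differed first in which of the 7 genes had an annotated region at all. HNF4G had 7 regions in HCC827, 4 in H1975, 2 in PC9 and 0 in HCC2935. GATA4 had 4 in HCC2935, 3 in H1975, 2 in PC9 and 1 in HCC827. HNF4A had 1 region each in PC9 and H1975, CDX2 1 each in H1975 and HCC2935, PDX1 1 each in HCC827 and HCC2935, and FOXA3 1 in every line but HCC827. ONECUT2 was the one gene with regions in all 4 lines, 3 in HCC2935 and 2 in each of the others.

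Control levels were tested at the 11 places matched in the 4 count tables, on 1 common CPM scale with edgeR's quasi-likelihood test, and 8 of 11 were called at an adjusted p under 0.05 against 86.9% of all matched regions. A share of this size is near that of the background. The fit used 1 spread per region for all lines, though libraries of a group differed by up to 9.39 times counting noise in HCC827 and 1.03 in PC9. The SE of a pair with HCC827 may therefore be too small. HNF4G carried the widest differences. At its inner promoter region, which ends 117 to 137 bases before the start of the nearest transcript, HCC827 had 36.7, 47.1 and 52.3 CPM, PC9 10.8, 10.6 and 11.4, H1975 6.09, 6.68 and 6.92, and HCC2935 0.948, 1.73 and 0. No library of 1 line overlapped those of another there, and each of the 6 pairs of lines was called, HCC827 being higher than PC9 by 2.10 (SE 0.20, adjusted p = 3.23e-11) on the log2 scale.

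The HNF4G middle intron region had HCC827 highest and HCC2935 lowest again, without the step between PC9 and H1975. HCC827 control libraries had 14.9 to 16.3 CPM, PC9 1.95 to 2.9, H1975 2.16 to 2.26 and HCC2935 0 to 0.432. HCC827 exceeded H1975 by 2.85 (SE 0.33, adjusted p = 3.98e-09), whereas H1975 and PC9 differed by -0.11 (SE 0.43, adjusted p = 0.833). All regions in the same 10 Mb of chromosome 8 had a median difference of 2.01 between HCC827 and PC9, 0.62 between HCC827 and H1975 and -2.14 between HCC2935 and HCC827. The inner promoter difference of 2.10 between HCC827 and PC9 thus lay close to the regional median, as did the far upstream differences of 2.12 for HCC827 against PC9 and -2.52 for HCC2935 against HCC827. Other inner promoter pairs lay further off, with 2.86 against 0.62 for HCC827 minus H1975 and -5.61 against -2.14 for HCC2935 minus HCC827. HCC2935 minus PC9 had -3.51 against -0.4, HCC2935 minus H1975 -2.75 against -1.73, and H1975 minus PC9 -0.75 against 1.19.

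Peaks called by the authors in single libraries are given for HNF4G as a description. Its proximal and distal intron regions and its near upstream region, which are annotated in HCC827 alone, had a peak in all 3 HCC827 control libraries and in 0 control libraries of the other lines. The region past the start is also annotated in HCC827 alone. It had a peak in all 3 HCC827 control libraries and in 2 of 3 of H1975. The inner promoter had one in all 3 control libraries of PC9, H1975 and HCC827. The far upstream region had one in 3 of H1975, 2 of PC9, 1 of HCC827 and 0 of HCC2935. The distal intron region, on chromosome 8 from 75554726 to 75555227, had 34, 32 and 60 counts in HCC827 control libraries and no region at that place in the other count tables.

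GATA4 followed another order. Its proximal intron region had 14.9, 16.1 and 16.3 CPM in H1975 controls, 10.9 to 13.6 in HCC2935, 5.50 to 10.8 in HCC827 and 0.649 to 0.829 in PC9. H1975 exceeded PC9 by 4.38 (SE 0.36, adjusted p = 2.51e-13) against a regional median of 0.49, and H1975 and HCC2935 did not differ beyond their spread (adjusted p = 0.188). PC9 libraries held 2 counts each there. The 2 GATA4 promoter regions were annotated in HCC2935 alone, with 9 to 21 and 16 to 30 counts in its controls.

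At the CDX2 3′ UTR region PC9 was the low line, with 1.66, 2.31 and 3.89 CPM against 10.4 to 11.2 in H1975, 9.79 to 12.3 in HCC2935 and 7.22 to 13.9 in HCC827. The latter 3 did not differ beyond their spread in any pair, and H1975 exceeded PC9 by 1.96 (SE 0.30, adjusted p = 4.63e-07). HNF4A was the reverse, with 5.39, 7.60 and 7.79 CPM in PC9 and 2.26, 3.15 and 5.50 in H1975, a difference of -0.96 (SE 0.35, adjusted p = 0.0186), and with 1 H1975 library inside the PC9 range. HCC2935 (1.36 to 4.32 CPM) was also called below PC9, by a difference of -1.20 (SE 0.41, adjusted p = 0.0135), and HCC827 (1.79 to 6.02 CPM) was called against none of the other lines.

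The ONECUT2 promoter was open to a like degree everywhere, with 34.4 to 41.0 CPM in PC9, 34.4 to 37.7 in H1975, 25.1 to 37.1 in HCC827 and 28.6 to 37.6 in HCC2935, and was not called (adjusted p = 0.272). A peak touched it in all 3 libraries of each of the 14 groups. The region past its start was called, with 9.04 to 9.93 CPM in H1975 against 15.3 to 23.8 in PC9, a difference of -1.05 (SE 0.19, adjusted p = 8.65e-06). PDX1 had a peak at its promoter in all 3 controls of HCC827 and of HCC2935 and in 0 controls of PC9 and H1975, and the control counts were 18, 19 and 55 in HCC827 and 26, 21 and 15 in HCC2935.

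**Figure D1:**
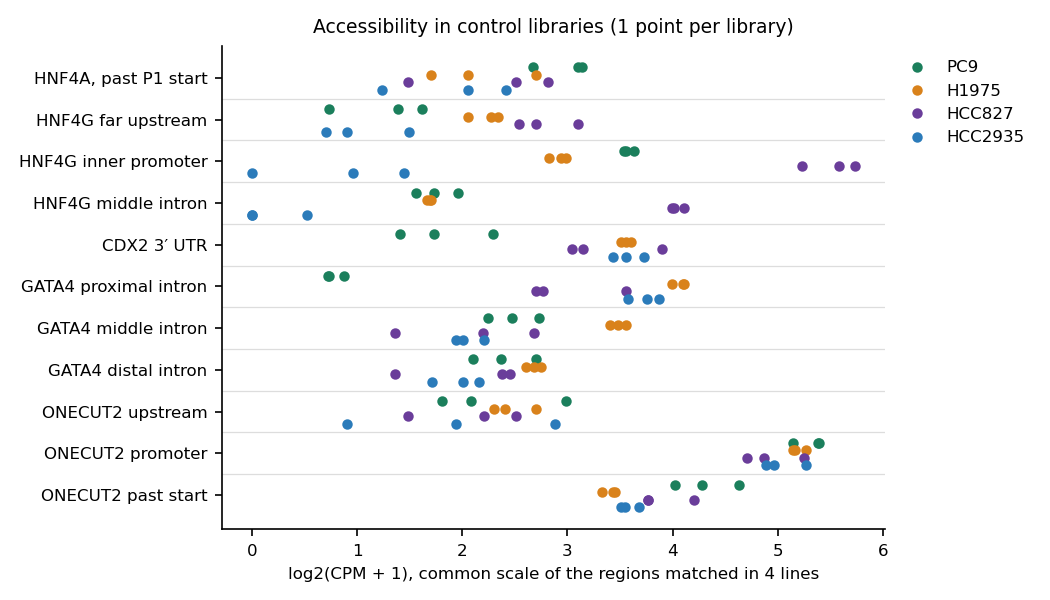
Accessibility of the 11 matched places in the 12 control libraries, as log2(CPM + 1) on the common scale, with 1 point per library coloured by line. HCC827 stands highest at the HNF4G inner promoter and middle intron, PC9 lowest at the GATA4 proximal intron and the CDX2 3′ UTR, and the 4 lines lie together at the ONECUT2 promoter.

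DTP cells were compared with control cells in each line to see what osimertinib persistence changed. In H1975, 4 of 12 member regions rose and 1 fell, against 25.8% and 36.8% of all annotated regions, and with libraries summed 4 were called. The rises were at HNF4A and HNF4G and the fall at CDX2. In PC9, 2 of 8 rose and 1 fell, against 16.4% and 21.7%, and 0 were called with libraries summed. In HCC2935, 4 of 10 rose and 1 fell, against 23.9% and 21.2%, and 3 were called with libraries summed. In HCC827, 0 of 10 tested members rose or fell (the 11th member having too few counts), against 0.0327% and 0.0131% of annotated regions. Under the replicate block 0 members were called as well, where 1776 of all 82309 tested regions rose and 1415 fell. Members had a median log2 change of 0.06 in H1975, 0.26 for PC9, -0.03 for HCC2935 and -0.18 for HCC827, and over all annotated regions -0.07, -0.03, 0.07 and -0.06.

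HNF4A showed the largest of these changes among the 41 member regions. Its region lies on chromosome 20 from 44402579 to 44403080 (hg38) in H1975, 1278 bases past the start of the nearest transcript, and from 44402563 to 44403064 in PC9. H1975 control libraries had 10, 16 and 27 counts (1.55, 2.15 and 3.64 CPM) and DTP libraries 88, 109 and 101 (11.3, 12.4 and 11.3 CPM). The groups did not overlap, and the change was 4.67-fold (log2 2.22, SE 0.19, adjusted p = 2.14e-24) where the median of its 10 Mb was 0.15. It kept its call in each of the 6 alternatives and without any 1 of the 12 libraries.

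In PC9 the same region had 13, 23 and 24 counts in control and 46, 41 and 19 in DTP libraries (4.76 to 11.2 CPM). DTP library 3 lay inside the control range, so the groups overlapped, and the change of 0.71 (SE 0.23, adjusted p = 0.00965) was lost with DESeq2, with libraries summed and without control library 1 or DTP library 1 or 2. Counts at the matched place went from 10, 10 and 3 to 16, 23 and 20 in HCC2935 (0.78, SE 0.37, adjusted p = 0.0859). In HCC827 they went from 10, 6 and 4 to 9, 6 and 30 (1.05, SE 0.60, adjusted p = 0.846, and 0.293 under the replicate block). Neither was called. The HNF4A change differed among lines (adjusted p = 0.00932), H1975 exceeding PC9 by 1.51 (SE 0.41, adjusted p = 0.00681) and HCC2935 differing from H1975 by -1.56 (SE 0.53, adjusted p = 0.0265).

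The P1 window was overlapped in part by a further region, one without annotation, in PC9, HCC827 and HCC2935, and by no region in the H1975 table. It had 7, 6 and 2 counts in PC9 control and 11, 12 and 13 in PC9 DTP libraries, 17, 12 and 8 against 6, 5 and 4 in HCC827, and 25, 18 and 10 against 21, 15 and 18 in HCC2935. These counts are a description, since the place was looked up after the member results were seen. A peak touched the HNF4A member region in 2 of 3 control and 3 of 3 DTP libraries of H1975, and in 3 of 3 of both groups in PC9.

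**Figure D2:**
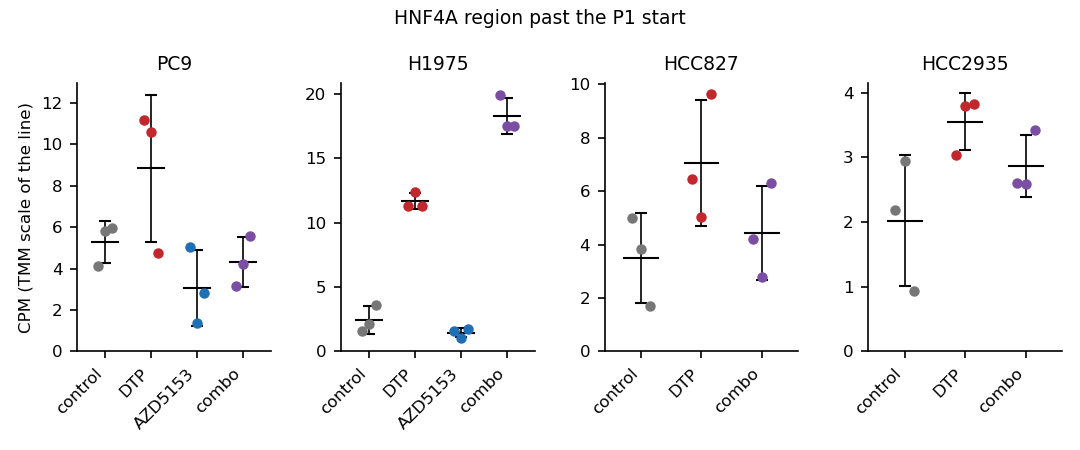
CPM of the HNF4A region past the P1 start in each library, on the scale of each line's own table and with a separate axis per line, with bars for the mean and SD of 3 libraries. H1975 DTP libraries sit between 11.3 and 12.4 CPM and combo libraries between 17.5 and 19.9, all above controls at 1.55 to 3.64.

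HNF4G, the paralogue of HNF4A, rose at 3 of its 4 member regions in H1975 DTP cells. The middle intron region, on chromosome 8 from 75483254 to 75483755, went from 10, 11 and 11 counts to 38, 40 and 47, with no overlap (log2 1.69, SE 0.26, adjusted p = 4.79e-09). The far upstream region, from 75401949 to 75402450, went from 17, 16 and 20 to 42, 46 and 53 (1.14, SE 0.22, adjusted p = 2.93e-06). Both stood above the regional median of 0.30 and kept their calls when regional medians were removed.

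At the outer promoter region of HNF4G the H1975 change was 0.44 (SE 0.14, adjusted p = 0.00563, and 0.239 with libraries summed), from 48, 54 and 69 to 78, 100 and 100 counts, and with regional medians removed it was 0.16 and not called. The inner promoter had 0.18 (adjusted p = 0.461). In HCC827 the 6 tested HNF4G regions had log2 changes from -0.68 to 0.04, and the proximal intron region, which was too low to test, had 14, 19 and 10 counts in control and 2, 3 and 4 in DTP libraries. PC9 had changes of -0.06 and -0.11 at its 2 promoter regions. In HCC2935, where HNF4G has no annotated region, the matched inner promoter place had 3, 4 and 0 control and 19, 21 and 23 DTP counts (adjusted p = 5.49e-05), and no fold is given against so few counts.

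The CDX2 region, on chromosome 13 from 27960681 to 27961182 in the 3′ UTR, fell in H1975 DTP cells from 48, 57 and 51 counts to 25, 40 and 43. The CPM did not overlap, at 6.88 to 7.67 against 3.20 to 4.81, and the change was -0.79 (SE 0.18, adjusted p = 8.03e-05). In PC9, where the place lies outside the annotated table, it went the other way, from 4, 7 and 12 counts to 19, 15 and 18 (1.06, SE 0.35, adjusted p = 0.0114, and 0.0869 with libraries summed). HCC2935 had -0.31 (SE 0.25, adjusted p = 0.345) and HCC827 0.50 (SE 0.43, adjusted p = 1, and 0.522 under the replicate block). The difference among lines was called (adjusted p = 7.05e-04), with a difference of -1.85 (SE 0.42) for H1975 minus PC9.

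GATA4 rises in DTP cells were called in HCC2935 and in PC9. In HCC2935 the middle intron region lies on chromosome 8 from 11736238 to 11736739. It went from 9, 7 and 8 counts to 34, 30 and 27, without overlap (log2 1.34, SE 0.32, adjusted p = 7.72e-04), against a regional median of 0.42. The outer promoter (0.83, SE 0.28, adjusted p = 0.018) and the proximal intron (0.69, SE 0.20, adjusted p = 0.00604) rose too, and both were no longer called with regional medians removed. The inner promoter went from 30, 16 and 19 to 20, 16 and 22 counts, with -0.72 (SE 0.30, adjusted p = 0.0503), and with regional medians removed -1.16 (adjusted p = 0.00226).

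In PC9 the GATA4 middle intron region rose from 9, 17 and 14 to 30, 28 and 23 counts, also without overlap (0.90, SE 0.27, adjusted p = 0.00435, and 0.0833 with libraries summed). H1975 had 48, 49 and 50 control and 48, 48 and 64 DTP counts (-0.14, adjusted p = 0.503). The change differed among lines (adjusted p = 0.00107), with 1.36 (SE 0.38) for HCC2935 minus H1975 and -1.04 (SE 0.35) for H1975 minus PC9. HCC2935 and PC9 did not differ beyond their spread (0.31, SE 0.45, adjusted p = 0.706). HCC827 held 0 to 9 counts there. The distal intron region, a member in PC9 and H1975, had 0.58 (adjusted p = 0.119) and 0.45 (adjusted p = 0.0567). At the matched place HCC2935 had 1.01 (adjusted p = 0.0166), and the lines did not differ (adjusted p = 0.709). At the proximal intron HCC827 had 0.95 (SE 0.45, adjusted p = 0.686, and 0.205 under the replicate block).

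**Figure D3:**
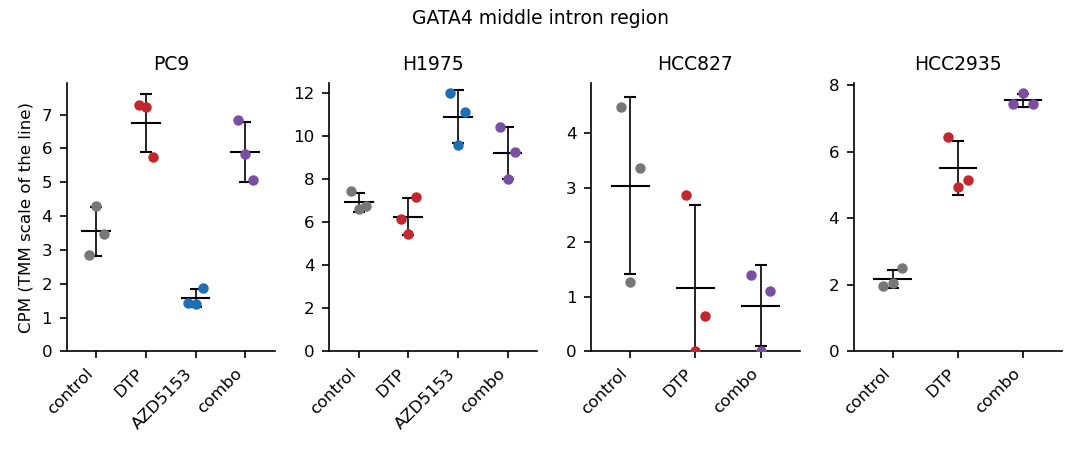
CPM of the GATA4 middle intron region in each library, on the scale of each line's own table and with a separate axis per line, with bars for the mean and SD of 3 libraries. DTP libraries exceed control libraries in PC9 and HCC2935, and H1975 is higher with AZD5153 alone than in control (6.59 to 7.42 CPM).

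ONECUT2 was lower past its start in DTP cells of PC9 and HCC2935, and its promoter was called in no line. The region past the start fell in PC9 DTP cells from 11.8 to 18.3 CPM in control to 9.72 to 11.5 (log2 -0.49, SE 0.17, adjusted p = 0.0147). In HCC2935 it fell from 34, 24 and 26 to 32, 29 and 16 counts, which is 7.09 to 8.14 against 3.05 to 6.08 CPM (-0.69, SE 0.27, adjusted p = 0.0378). HCC827 had -0.82 (SE 0.47, adjusted p = 0.84, and 0.232 under the replicate block) and H1975 -0.06 (SE 0.17, adjusted p = 0.799). The PC9 call was lost with DESeq2 and with libraries summed, and the HCC2935 call was lost in 3 of 6 alternatives and in 7 of 9 fits without 1 library.

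At the ONECUT2 promoter PC9 had a DTP change of -0.23, H1975 of -0.16, HCC827 of 0.01 and HCC2935 of -0.11, none called. The distal region upstream of ONECUT2 in HCC2935, at -37475 bases from the start, rose from 9, 2 and 14 to 27, 40 and 24 counts (1.28, SE 0.40, adjusted p = 0.00975), and the call was lost without control library 1 or 2. FOXA3 and PDX1 had no called DTP change. FOXA3 went from 15, 15 and 17 to 29, 24 and 24 counts in PC9 (0.60, SE 0.26, adjusted p = 0.0645), with -0.17 in H1975 and -0.47 in HCC2935, and PDX1 had -0.08 in HCC827 and 0.06 in HCC2935. Over the 11 matched places the DTP change differed among lines at 6, against 37.2% of all matched regions.

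The combo group was compared with DTP cells to see what 3 days of AZD5153 changed in persisters. In H1975, 3 of 12 member regions were higher and 3 lower, against 22.0% and 10.6% of annotated regions, and 1 was called with libraries summed. In PC9, 2 of 8 were higher and 1 lower, against 15.5% and 13.7%, and again 1 was called with libraries summed. In HCC2935, 0 of 10 were called, against 3.28% higher and 9.59% lower, and in HCC827, 0 of 10, against 0.0% and 0.0%. Under the replicate block 0 HCC827 members were called, where 0 of 82309 tested regions rose and 25 fell. The member medians were -0.17, 0.16, 0.04 and -0.05 in H1975, PC9, HCC2935 and HCC827, where all annotated regions had 0.09, 0.03, 0.03 and -0.05.

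In H1975 HNF4A rose further and 2 of the 4 HNF4G regions fell. HNF4A went from 88, 109 and 101 to 152, 140 and 155 counts, with no overlap in CPM (0.64, SE 0.11, adjusted p = 1.31e-06, and 0.151 with libraries summed). The HNF4G middle intron fell back from 38, 40 and 47 to 11, 19 and 17 counts (-1.34, SE 0.24, adjusted p = 2.03e-06, and 0.0232 with libraries summed), which is 1.44 to 2.37 CPM against 1.48 to 1.55 in control. The HNF4G outer promoter fell from 9.98 to 11.3 CPM in DTP to 6.82 to 7.73 in combo libraries (-0.56, SE 0.14, adjusted p = 0.0011, and 0.314 with libraries summed). The far upstream region had -0.28 (SE 0.19, adjusted p = 0.295) and the inner promoter 0.10 (SE 0.18, adjusted p = 0.745).

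In PC9 the HNF4A region was lower in combo than in DTP cells, from 46, 41 and 19 to 13, 16 and 21 counts (-1.03, SE 0.24, adjusted p = 3.40e-04). DTP library 3, at 4.76 CPM, overlapped the combo range of 3.17 to 5.59, and the call was lost with DESeq2. CDX2 in H1975 went from 25, 40 and 43 to 16, 19 and 29 counts with an overlap in CPM (-0.69, SE 0.23, adjusted p = 0.0164), a call lost in 3 of 6 alternatives. The GATA4 middle intron region of H1975 rose from 5.44 to 7.16 CPM in DTP to 7.98 to 10.4 in combo libraries (0.55, SE 0.15, adjusted p = 0.00325, and 0.31 with libraries summed).

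FOXA3, in PC9, rose from 29, 24 and 24 to 39, 39 and 41 counts, with no overlap (0.67, SE 0.21, adjusted p = 0.00966), a call lost with DESeq2 and with libraries summed. In H1975 it went from 23, 17 and 24 to 15, 12 and 12 counts (-0.65, SE 0.29, adjusted p = 0.0988). The ONECUT2 promoter rose by 0.25 in H1975 (adjusted p = 0.0333) and by 0.29 in PC9 (adjusted p = 0.0469), with no overlap in CPM. Both calls were lost with DESeq2 and with libraries summed, and the H1975 call also with no filter and with regional medians removed. Without 1 library the call was kept in 9 of 12 fits in H1975 and in 7 of 12 in PC9. In HCC2935 the member changes ran from -0.19 to 0.46, the last at the GATA4 middle intron (34, 30 and 27 to 40, 54 and 37 counts, adjusted p = 0.228).

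**Figure D4:**
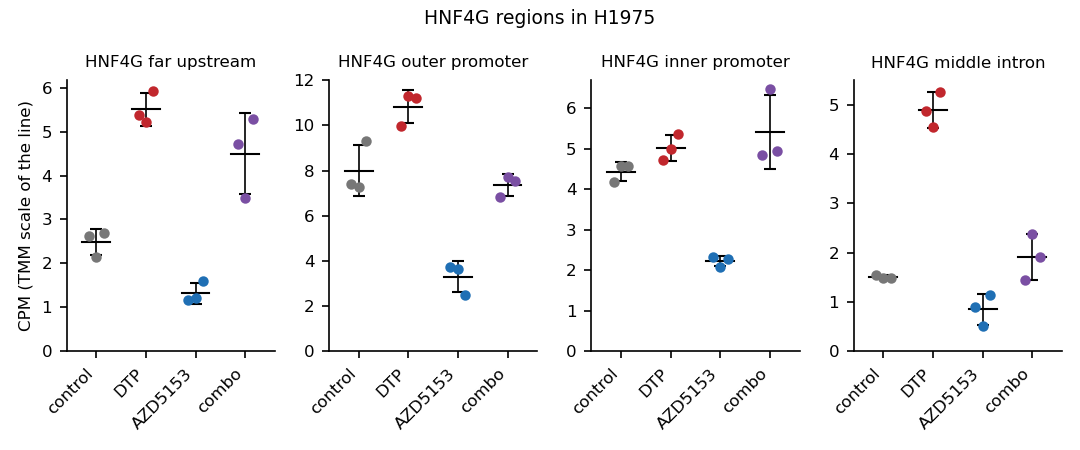
CPM of the 4 HNF4G member regions in the 12 H1975 libraries, with bars for the mean and SD of 3 libraries and a separate axis per region. The middle intron region rises to 4.54 to 5.26 CPM in DTP cells and returns to 1.44 to 2.37 in combo cells, while the mean of each of the 4 regions is lowest with AZD5153 alone.

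AZD5153 alone was set against control in the lines that had it. In PC9, 0 of 8 member regions rose and 2 fell, against 14.3% and 18.2% of annotated regions, and 0 were called with libraries summed. The falls were at the GATA4 middle intron (9, 17 and 14 to 6, 6 and 8 counts, -1.18, SE 0.38, adjusted p = 0.0101) and at HNF4A (13, 23 and 24 to 21, 6 and 12 counts, -0.81, SE 0.29, adjusted p = 0.0262). Groups overlapped at HNF4A and not at GATA4, and each call was lost in 3 of 6 alternatives.

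In H1975, 2 of 12 rose and 5 fell, against 29.0% and 43.2% of annotated regions, and 5 were called with libraries summed. The member median was -0.51 where that of all annotated regions was -0.18, and in PC9 they were -0.05 and 0.01. CDX2 fell from 48, 57 and 51 to 12, 8 and 9 counts, to 0.18 of the control level (-2.48, SE 0.25, adjusted p = 1.47e-18), where the median of its 10 Mb was -0.77. With regional medians removed it was -1.76 (adjusted p = 9.62e-10). HNF4G fell at its outer promoter (-1.31, SE 0.19, adjusted p = 8.29e-10), inner promoter (-0.98, SE 0.24, adjusted p = 2.24e-04) and far upstream region (-0.88, SE 0.32, adjusted p = 0.0135, and 0.0747 with libraries summed). All regions of its 10 Mb had a median of -1.21, and with that removed the HNF4G values were -0.23, 0.09 and 0.19, none called.

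HNF4A had 12, 6 and 15 counts with AZD5153 alone, against 10, 16 and 27 in control (-0.74, SE 0.31, adjusted p = 0.0346), overlapping and lost in 3 of 6 alternatives. FOXA3 rose from 23, 17 and 20 to 42, 46 and 46 counts (1.09, SE 0.22, adjusted p = 5.15e-06), with 5.25 to 8.01 CPM above the control range of 2.29 to 3.56. The GATA4 middle intron rose from 48, 49 and 50 to 93, 55 and 97 counts, without overlap in CPM (0.67, SE 0.15, adjusted p = 4.27e-05). FOXA3 and this GATA4 region kept their calls in all 6 alternatives. Epithelial markers moved in the same libraries, the promoters of EPCAM, CDH1, KRT8, KRT18 and KRT19 summing to 78.6 to 81.0 CPM in H1975 control, 34.0 to 36.1 with AZD5153 alone, 84.7 to 90.4 in DTP and 96.7 to 97.6 in combo, and their part in these results was not tested.

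**Figure D5:**
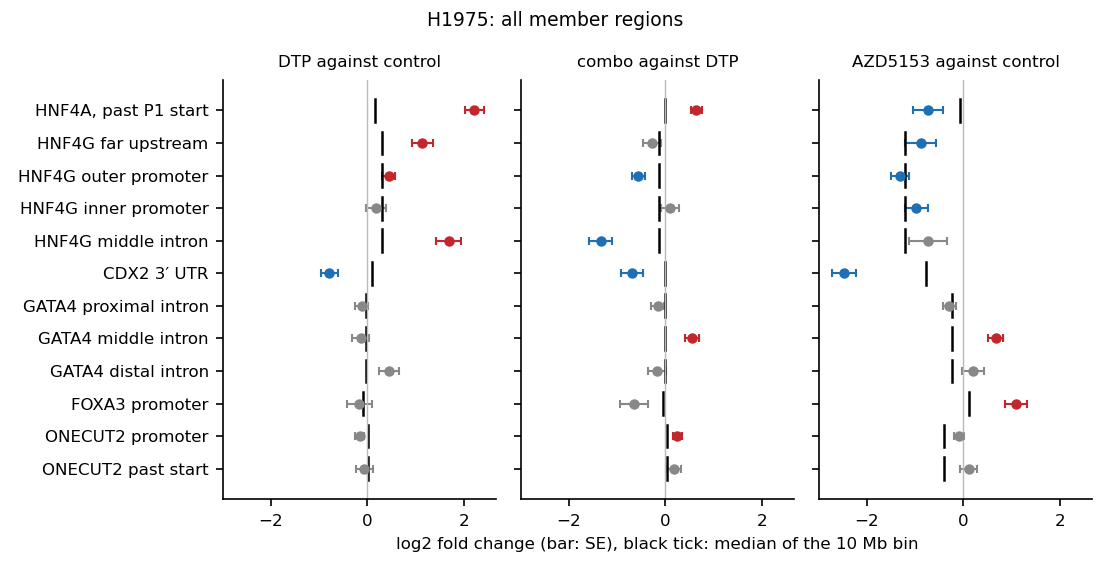
Log2 change of the 12 H1975 member regions in 3 comparisons, with bars for the SE, red for called higher, blue for called lower and grey for not called, and a black tick for the median of all regions in the same 10 Mb. HNF4A lies far right of its tick in DTP cells, and the HNF4G regions lie near theirs with AZD5153 alone.

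The change from DTP to combo cells was compared with that from control to AZD5153 alone, by the interaction of the 2 contrasts. Whether combo cells kept osimertinib is not given, so the first change may not be due to AZD5153 only. In H1975, 5 of 12 member regions were higher and 1 lower, against 40.0% and 19.8% of annotated regions, and 3 were called with libraries summed, with a median of 0.23 for the members and 0.25 for all annotated regions. HNF4A differed by 1.38 (SE 0.33, adjusted p = 2.37e-04), with 0.64 in persisters against -0.74 in untreated cells, and the regional median was -0.02. FOXA3 differed by -1.74 (SE 0.37, adjusted p = 2.20e-05), with -0.65 against 1.09. CDX2 differed by 1.78 (SE 0.36, adjusted p = 9.13e-06), with -0.69 against -2.48, where the regional median was 0.77. With regional medians removed the CDX2 difference was 1.03 (adjusted p = 0.0157). These 3 kept their calls in all 6 alternatives, whereas those at the HNF4G outer and inner promoters and at the ONECUT2 promoter did not when regional medians were removed. The HNF4G middle intron moved the other way, from -0.61 (adjusted p = 0.32) to -1.53 (adjusted p = 0.0078) with regional medians removed. In PC9, 0 of 8 were called, against 10.8% higher and 8.1% lower, with an interaction at HNF4A of -0.22 (SE 0.39, adjusted p = 0.785).

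Other gut and liver transcription factors were read at their nearest promoter region, 18 genes in all. In H1975 DTP cells 1 of 9 with a tested region rose and 4 fell, with a median of -0.22 against 0.02 for all promoters, of which 26.1% rose and 27.0% fell. FOXA2, a forkhead factor of endoderm, fell from a mean of 28.4 to 3.59 CPM (-2.98, SE 0.14, adjusted p = 2.74e-56), ONECUT3 fell by 1.58 on the log2 scale, and FOXA1 rose by 0.56. In PC9, 4 of 11 rose and 0 fell, against 14.9% and 14.6% of all promoters, with GATA5 at 0.92 and CDX1 at 0.90 the largest. In HCC2935, 2 of 10 rose and 0 fell, against 21.5% and 14.8%, NR5A2 by 2.28 and GATA6 by 0.92, and in HCC827, 0 of 6 were called, against 0.0% and 0.00612%.

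Of the 21 gut and liver target genes listed, which the member factors are known to switch on, few had a promoter region, 4 in H1975, 6 in HCC2935, 3 in PC9 and 0 in HCC827. The hepatocyte genes ALB, AFP, TTR and APOA1 had none in any line. APOH of the same list had one in H1975, HCC2935 and PC9, with control means of 5.36, 5.32 and 6.75 CPM. AMBP, APOB and FGB had one in HCC2935, so the absent genes do not stand for the list. In HCC2935 DTP cells 0 of 6 rose and 4 fell, against 21.5% and 14.8% of all promoters, with fibrinogen FGB at -2.99 (SE 0.38, adjusted p = 1.93e-08) and apolipoprotein APOB at -1.50 (SE 0.35, adjusted p = 6.06e-04). In H1975 the intestinal genes CDH17 (-1.90, SE 0.26) and LGALS4 (-1.66, SE 0.18) fell and MUC13 rose (0.65, SE 0.21), so that 1 of 4 rose and 2 fell, against 26.1% and 27.0%. In PC9 1 of 3 rose, against 14.9%, MUC13 by 1.07 (SE 0.36, adjusted p = 0.0124). Lung epithelial promoters had 2 of 10 higher and 3 lower in H1975, 0 and 3 of 8 in HCC2935 and 1 and 0 of 9 in PC9, of which the H1975 shares were near those of all its promoters. The NKX2-1 promoter mean went from 33.6 CPM in control to 19.4 in DTP cells of HCC2935. In PC9 it went from 9.15 to 10.4, in H1975 from 20.8 to 18.9 and in HCC827 from 28.8 to 26.8. Between DTP and combo cells of HCC2935, 0 of the 6 target genes rose and 3 fell, against 4.69% and 5.08% of all promoters. In PC9 1 of 3 rose and 1 fell, against 17.1% and 10.3%, and in H1975 0 of 4 rose and 0 fell, against 25.9% and 7.95%.

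For combo against DTP, 2 of 9 of the other transcription factors rose and 2 fell in H1975, against 25.9% and 7.95% of all promoters. In PC9 4 of 11 rose and 0 fell, against 17.1% and 10.3%, and in HCC2935 1 of 10 rose and 0 fell, against 4.69% and 5.08%. PC9 rises were led by FOXA2 (1.18, SE 0.29, adjusted p = 9.03e-04) and ONECUT1 (0.90, SE 0.31, adjusted p = 0.0208). With AZD5153 alone in H1975, 5 of 9 rose and 3 fell, near the 39.9% and 29.4% of all promoters, with HHEX at 1.02 and SOX9 at 0.94 the largest rises and ISX, an intestinal homeobox factor, at -3.80 and FOXA2 at -2.02 the largest falls. The leukocyte and endothelial promoters listed had 4 of 7 genes with a region in H1975, summing to 36.3 to 41.1 CPM in control, 27.5 to 30.7 in DTP, 18.1 to 21.3 with AZD5153 alone and 29.4 to 31.0 in combo libraries, and their part in these results was not tested.

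Across the 14 group means, the promoter regions most like a member's were found among 14614 genes with a region matched in 4 lines, as a description. For HNF4A they were at EFCAB2, PHACTR2 and LIX1 (Pearson r of 0.909, 0.888 and 0.886). For HNF4G they were at ADCY8, CCDC26 and ATP6V1C1 (0.949, 0.938 and 0.938), all on chromosome 8 like HNF4G itself. For ONECUT2 they were at RER1, BIVM-ERCC5 and CCSER2 (0.936, 0.933 and 0.925). The 14 means share lines and libraries and are not independent.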

How the data were processed

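Per the submitters' processing notes, the authors' tools were BWA 0.7.17, SAMtools 1.9, deepTools 3.4, MACS2 2.2.6, featureCounts 2.0.0 and ChIPseeker 1.29.1 on hg38. The authors deposited whole-number counts per region for each line, once over all regions and once filtered and annotated, and peaks per library with −log10 q-values. The extract protocol given with the samples describes ChIP for H3K27ac, whereas the titles name ATAC-seq. Each line was fitted with edgeR 4.0.16 (R 4.3.3): all its groups in 1 quasi-likelihood fit, TMM scaling, the low-count filter of edgeR, Benjamini-Hochberg adjustment over all tested regions and a threshold of 0.05. Regions overlapping by at least 50% of each other in the 4 tables were fitted jointly for control levels and for differences among lines. Both joint fits used 1 spread per region for all lines. Fits were tested on simulated data. Alternatives were DESeq2 1.42.0 and its size factors, no filter, a replicate block, removal of the median change of each 10 Mb, the 3 libraries of a group summed, an 80% overlap and leaving out each library. Summed libraries were tested by edgeR's likelihood ratio test with the spread of HCC2935, and not in HCC827. Replicate numbers were read as a pairing in HCC827 alone. Same-numbered deviations correlated there at 0.278 to 0.861 and differently numbered ones at -0.744 to 0.59, so the ranges overlapped. Regions nearest a start, the highest outside promoters, and the 3 largest non-overlapping called rises and falls per comparison are named in full. For the gene lists the 2 largest called rises and falls are named, others after their values were seen. The members and lists were chosen with earlier results of these data known. Counts carry no molecular identifiers.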

Additional observations from a re-analysis of the deposited data

Results flagged for a closer look

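The DTP change differed among the 4 lines at 6 of 11 matched places, by the test of the difference itself. Of all matched regions 37.2% were called in that test. The range of the log2 changes over lines was 1.56 at HNF4A, 1.85 at CDX2, 1.38 at the GATA4 proximal intron, 2.78 at the GATA4 middle intron, 2.93 at the HNF4G inner promoter and 3.67 at the HNF4G middle intron. The GATA4 and HNF4G values rest in part on lines with very few counts, namely 2 counts per PC9 control library at the GATA4 proximal intron, 0 to 4 per HCC827 DTP library at the GATA4 middle intron, and 0 to 4 and 0 to 1 per HCC2935 control library at the 2 HNF4G places.

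In H1975 the change of combo against DTP cells differed from that of AZD5153 alone against control at 6 of 12 member regions. Of these, 5 were higher and 1 lower, where 40.0% of annotated regions were higher and 19.8% lower. The differences on the log2 scale were 1.78 at CDX2, -1.74 at FOXA3, 1.38 at HNF4A, 0.75 at the HNF4G outer promoter, 1.09 at the HNF4G inner promoter and 0.34 at the ONECUT2 promoter. All regions in the 10 Mb around HNF4G had a median of 1.09 in the same comparison, and those around CDX2 0.77.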

How the results depend on the processing

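The count of called members moved by over 1.5 times in these cases. With the 3 libraries of a group summed it went from 3 to 0 for PC9 DTP, from 5 to 3 for HCC2935 DTP, from 6 to 1 for H1975 combo, from 3 to 1 for PC9 combo, from 2 to 0 for PC9 AZD5153 and from 6 to 3 for the H1975 interaction. With DESeq2 it was 1 for PC9 DTP, 3 for HCC2935 DTP, 0 for PC9 combo and 0 for PC9 AZD5153, and with no filter 0 for PC9 AZD5153. Without 1 library the counts ran from 4 to 5 for H1975 DTP, 1 to 4 for PC9 DTP, 3 to 5 for HCC2935 DTP, 4 to 6 for H1975 combo, 2 to 3 for PC9 combo, 5 to 8 for H1975 AZD5153, 0 to 3 for PC9 AZD5153, 4 to 6 for the H1975 interaction and 0 to 1 for the PC9 interaction, 7 to 9 for control levels and 5 to 7 for DTP change among lines, and stayed at 0 in both HCC827 comparisons and HCC2935 combo. Among member values called with or without regional medians removed, the sign turned at 5, all in H1975, which became 0.19 and 0.09 for AZD5153 alone at the HNF4G far upstream and inner promoter regions, 0.29 for AZD5153 alone at the ONECUT2 promoter, and -0.18 and -0.11 for the interaction at the HNF4G outer promoter and the ONECUT2 promoter. Values called in neither setting are not listed. The cause was not tested. The replicate block changed no member call except the GATA4 inner promoter in HCC2935 DTP, called at an adjusted p = 0.0427, and could not be run for control levels.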
